A study of Mus musculus with 2 samples.

Results

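The Ly49 receptors are encoded by the Klra genes, and 6 members of this family, Klra3, Klra4, Klra6, Klra7, Klra8 and Klra9, were followed across natural killer (NK) and T cells of mouse blood. They were taken by symbol from the 27998 genes listed, and were chosen by their levels in NK-like cells and their ratios between the libraries, which were already known, so those values are a description without a test. Another 5 genes with a Klra symbol were listed and are given at the end. Peripheral blood mononuclear cells came from 10-week-old female C57Bl/6 mice. The mutant mice carried a V377I allele of Mvk, the mevalonate kinase gene, opposite a del91 allele, and the controls were wildtype (Mvk+/+). Blood of 3 mice per genotype was pooled into 1 library, so genotype, mouse pool and library cannot be told apart and no test between genotypes is possible. Live Ter119-negative cells were sorted and sequenced as 10x Chromium 3' v2 libraries, in which each unique molecular identifier (UMI) stands for 1 captured RNA molecule.

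Ly49 receptors are C-type lectin-like proteins on the surface of mouse NK cells and of some T cells. Inhibitory members bind class I major histocompatibility (MHC) molecules and carry a tyrosine in a cytoplasmic motif (ITIM) that recruits phosphatases such as SHP-1. Activating members lack that tyrosine and signal through the adaptor DAP12, the product of Tyrobp, which they hold through a charged residue in the membrane. Each NK cell uses some members of the family and not others, so the NK cells of a mouse form a repertoire of receptor combinations. Klra3 encodes Ly49C, Klra6 Ly49F, Klra7 Ly49G and Klra9 Ly49I, which are inhibitory. Klra4 encodes Ly49D and Klra8 encodes Ly49H, which are activating, and Ly49H is known for recognising the m157 protein of murine cytomegalovirus.

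The difference between the inhibitory and activating members can be read in the first 10 codons of each gene. These stretches were taken from the GENCODE M21 transcript with the longest open reading frame, and the capitals mark codon 8, counted from the start codon. TAC codes for the ITIM tyrosine and TTC for phenylalanine.
Klra3: atgagtgagccagaggtcactTACtcaact
Klra6: atgagtgagccggaggtcactTACtcaact
Klra7: atgagtgagcaggaggtcactTACtcaact
Klra9: atgaatgagccggaggtcactTACtcaact
Klra4: atgactgaacaggaagacactTTCtcagct
Klra8: atgagtgagcaggaggtcactTTCccaact
The tyrosine codon was present in Klra3, Klra6, Klra7 and Klra9 and replaced by a phenylalanine codon in Klra4 and Klra8. In a second stretch, which codes for part of the membrane segment, the capitals mark codon 57. CTT and CTC code for leucine, and CGA and CGG code for the charged arginine.
Klra3: ggaatcctctgtttccttCTTctt
Klra6: ggaatcctctgtttccttCTTctt
Klra7: ggaatcctctgtttccttCTCctg
Klra9: ggaatcctctgtttccttCTTctg
Klra4: gggatcctcatttcccttCGActg
Klra8: ggaatcctctgttcccttCGGctg
The arginine codon stood in the same pair of genes that lacked the tyrosine codon.

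All 6 genes lie on the minus strand of chromosome 6 of GRCm38 (mm10). By position they are Klra6 (chr6:130013033-130026954), Klra4 (chr6:130043731-130067271), Klra8 (chr6:130115226-130129898), Klra9 (chr6:130178675-130193112), Klra7 (chr6:130218605-130233322) and Klra3 (chr6:130323289-130337574). Their coding sequences are similar enough that read sharing matters. Klra3 and Klra9 were identical at 95.9% of aligned coding positions, the closest pair of the 15, and Klra7 and Klra8 at 74.3%, the most distant. No stretch of 98 bases, the length of the cDNA read, from the last 500 bases of any member occurred without mismatch in the transcripts of another. The assignment of reads with mismatches is not given in the sources used here, which leaves values of the family uncertain, most of all those of Klra3 and Klra9.

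In all, 14513059 UMIs were deposited for the mutant and 15385199 for the wildtype library. After filtering, 4121 mutant cells (median 1956 UMIs) and 5092 wildtype cells (median 2014.5 UMIs) were kept, and 26 cell barcodes occurred in both libraries. Cells were grouped without the Klra genes, so these did not set the groups. The NK-like cluster had 192 mutant cells (4.66% of cells) and 888 wildtype cells (17.4%), with a median depth of 2011.5 UMIs in mutant and 1656 UMIs in wildtype cells. Of 15 NK markers, 14 stood at least 1.5-fold above the other cells. The NK receptor gene Ncr1 had 871 CPM in mutant and 1151 CPM in wildtype cells, CPM being the UMIs of a gene for every 1000000 UMIs of the cells summed per library, and the T cell gene Cd3e had 28.8 and 22.2 CPM, against 349 and 345 CPM in CD4 T-like cells. There were 947 mutant and 1388 wildtype CD8 T-like cells. They formed a cluster led by Gzmm, Ly6c2 and Cxcr3 (200 mutant and 384 wildtype cells) and another with Dapl1 among its leading genes (747 and 1004 cells). A 3' tag counts molecules whatever their length, so levels of different genes are on 1 scale, within the limit that the sharing of reads between members sets. Intervals below are exact 95% intervals for counting error only.

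**Figure D1:**
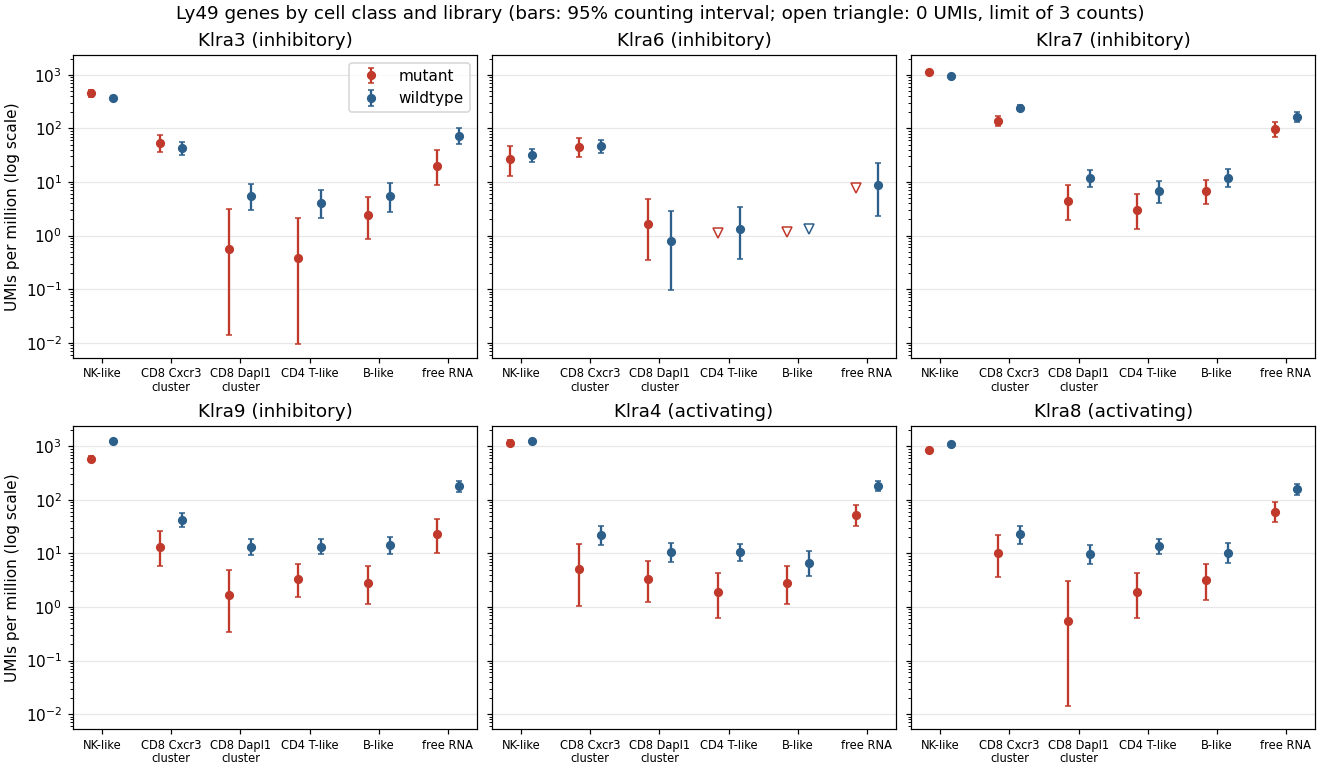
CPM (log scale) of each Ly49 gene in 5 cell groups and in free RNA, mutant left of wildtype; bars are 95% counting intervals and open triangles mark 0 UMIs at the limit that 3 counts set. NK-like cells hold the highest level of each gene but Klra6, which stands at 45.3 and 46.9 CPM in the Cxcr3 cluster of CD8 T-like cells and at 26.4 and 31.4 CPM in NK-like cells.

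In NK-like cells the inhibitory members differed most in how the libraries compared. Klra9 (Ly49I) had 247 UMIs in mutant and 2034 UMIs in wildtype cells, which gave 593 CPM (521 to 671) and 1254 CPM (1200 to 1309). Its ratio of mutant to wildtype was 0.473 (0.413 to 0.540). Klra9 was the only member of the 6 at least 1.5-fold apart in these cells, where 7.9% of the 4645 measured genes were at least 1.5-fold lower in the mutant and 3.81% at least 1.5-fold higher. A gene counted as measured when both libraries together gave at least 50 UMIs. In simulated counts of these cells, 9.47% of unaltered genes were at least 1.5-fold apart in either direction by counting error alone. That share covers all genes of at least 50 UMIs and was not computed for genes with as many UMIs as Klra9. The spread between cells was not simulated. Both the share of cells and the UMIs per cell differed. A Klra9 UMI was seen in 49.0% (41.7 to 56.3) of mutant cells and 67.5% (64.3 to 70.5) of wildtype cells, a ratio of shares of 0.726 (0.578 to 0.903). The cells with a UMI held 2.63 UMIs on average in the mutant library and 3.40 in the wildtype, although the mutant cells were the deeper ones. No mutant cell and 15 wildtype cells (1.69%) had 10 or more Klra9 UMIs, and 7.81% of mutant and 15.8% of wildtype cells had 5 to 9.

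Klra7 (Ly49G) went the other way in these cells. It had 475 mutant and 1561 wildtype UMIs, or 1140 CPM (1039 to 1247) and 962 CPM (915 to 1011), a ratio of 1.18 (1.07 to 1.31). The share of cells with a Klra7 UMI was 65.1% (57.9 to 71.8) in the mutant library and 60.8% (57.5 to 64.04) in the wildtype, intervals that overlap. Klra3 (Ly49C), the closest relative of Klra9 in sequence, stood at 458 CPM (396 to 528) in mutant and 377 CPM (348 to 408) in wildtype cells, a ratio of 1.21 (1.03 to 1.43). It was detected in 32.3% and 28.0% of cells, a ratio of shares of 1.15 (0.857 to 1.53), an interval that includes 1. By UMIs, Klra3 and Klra9 thus lay on opposite sides of a ratio of 1, while the share of cells with Klra3 showed no detectable difference. Klra6 (Ly49F) was the scarcest member, with 11 mutant and 51 wildtype UMIs (26.4 and 31.4 CPM) in 5.21% and 3.94% of cells. Its ratio of 0.840 had an interval of 0.395 to 1.63, so no difference was detectable at this depth.

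Of the activating members, Klra4 (Ly49D) was at similar levels in both libraries: 491 mutant and 2023 wildtype UMIs, 1178 CPM (1076 to 1287) and 1247 CPM (1193 to 1302), a ratio of 0.945 (0.854 to 1.04). It was detected in 53.6% of mutant and 58.3% of wildtype cells. Klra8 (Ly49H) had 353 and 1818 UMIs, or 847 CPM (761 to 940) in mutant and 1120 CPM (1070 to 1173) in wildtype cells, a ratio of 0.756 (0.673 to 0.848). Its UMIs were found in 47.4% (40.2 to 54.7) of mutant cells and 57.4% (54.1 to 60.7) of wildtype cells. The activating pair therefore had no common ratio, and Klra8, with a ratio below 1, still fell short of 1.5-fold. The 6 members together stood at 4242 CPM (4046 to 4444) in mutant and 4991 CPM (4883 to 5101) in wildtype NK-like cells, a ratio of 0.850 (0.807 to 0.895). Their median log2 ratio was -0.14, against -0.05 over all measured genes.

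The order of the members differed between the libraries. In mutant NK-like cells Klra4 and Klra7 led with intervals that overlap, then came Klra8, then Klra9 and Klra3, whose intervals meet, and Klra6 last. In wildtype cells Klra9 and Klra4 led with intervals that overlap, followed by Klra8, Klra7, Klra3 and Klra6, each below the interval of the one before. Klra9 thus led together with Klra4 in wildtype cells and stood below Klra4, Klra7 and Klra8 in mutant cells. These are orders within 1 library each, the spread between mice is not known, and reads shared between similar members could move a gene's place.

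Free RNA was read from barcodes with at most 20 UMIs, which hold no cell. The sum of the 6 genes stood at 255 CPM (101 UMIs) in the mutant and 769 CPM (354 UMIs) in the wildtype free RNA, a ratio of 0.332 (0.264 to 0.416). All 4 members with at least 50 UMIs there were at least 1.5-fold lower in the mutant, where 9.17% of measured genes were lower and 3.82% higher. By gene the ratios were 0.128 (0.0565 to 0.255) for Klra9, 0.288 for Klra4, 0.383 for Klra8 and 0.598 (0.395 to 0.890) for Klra7. Klra3, with 8 mutant and 34 wildtype UMIs below that minimum, was at 0.274 (0.110 to 0.603). Among these 5 genes Klra9 was the lowest in free RNA and in NK-like cells, while Klra3 was second lowest in free RNA and highest in NK-like cells. In B-like cells, which should lack these receptors, any Ly49 UMI was seen in 3.49% (2.55 to 4.66) of mutant cells and 9.12% (7.5 to 10.97) of wildtype cells, at a median depth of 1585 UMIs in each. The levels there were 17.8 and 48.9 CPM, far below the 4242 and 4991 CPM of NK-like cells. With the free RNA profile subtracted, the Klra9 ratio in NK-like cells was 0.493.

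**Figure D2:**
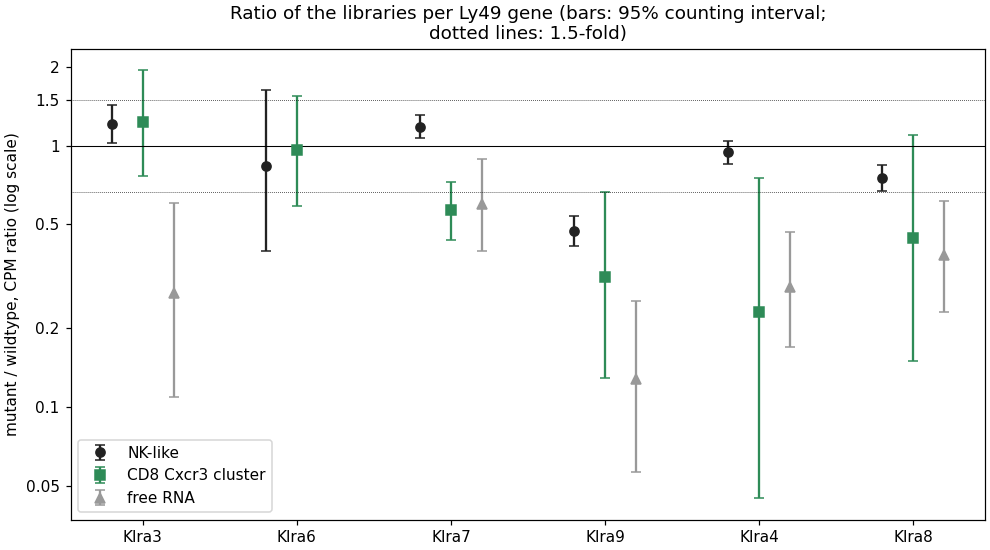
Ratio of mutant to wildtype CPM (log scale) of each Ly49 gene in NK-like cells, in the Cxcr3 cluster of CD8 T-like cells and in free RNA, with 95% counting intervals and dotted lines at 1.5-fold; Klra6 is not drawn in free RNA, where it had 0 mutant and 4 wildtype UMIs. Klra7 lies at 1.18 in NK-like cells and at 0.566 in the Cxcr3 cluster.

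Almost every NK-like cell held RNA of some member. At least 1 Ly49 UMI was found in 180 of 192 mutant cells (93.75%, 89.3 to 96.7) and in 867 of 888 wildtype cells (97.6%, 96.4 to 98.5). Cells without any were 6.25% (3.27 to 10.7) of the mutant NK-like cells, against 2.36% (1.47 to 3.59) in the wildtype. The mean number of members detected was 2.53 ± 1.26 (SD over 192 cells) in the mutant and 2.76 ± 1.12 (SD over 888 cells) in the wildtype library, with a median of 3 in each. A depth gap bears on these counts, since the mutant cells were deeper. Thinned to 1000 UMIs, 88.9% of 190 mutant and 95.1% of 876 wildtype cells had a Ly49 UMI, and the means were 1.97 and 2.29 members. Only 2 mutant and 12 wildtype cells were too shallow to be thinned.

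**Figure D3:**
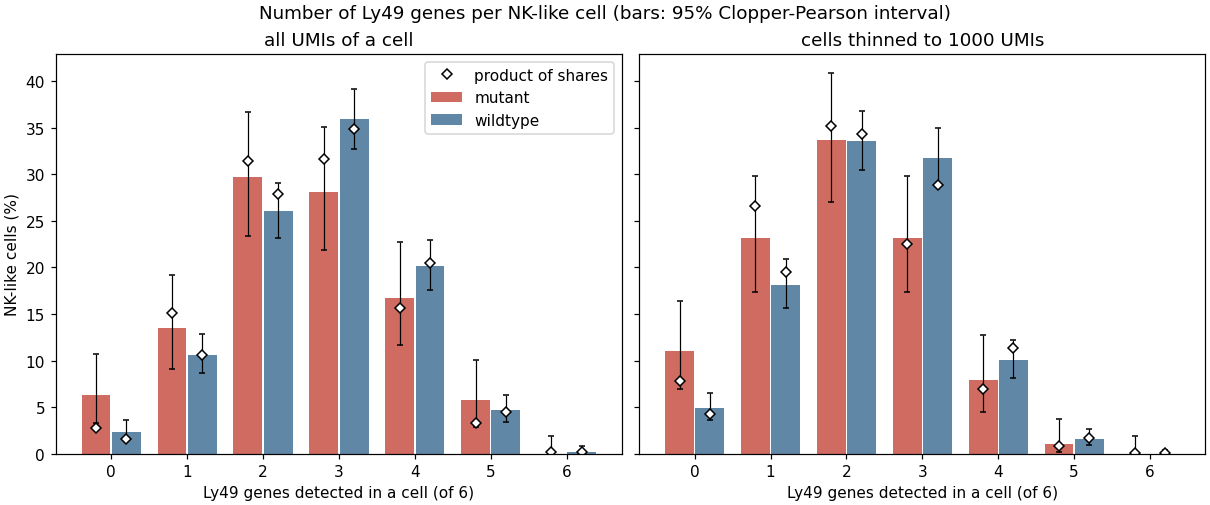
Share of NK-like cells (%) by the number of Ly49 genes detected, of 6, for all UMIs (left) and for cells thinned to 1000 UMIs (right), mutant left of wildtype, with 95% Clopper-Pearson intervals; diamonds give the shares that result when the 6 genes are combined independently. Cells with 0 genes are 6.25% of mutant and 2.36% of wildtype cells, against 2.79% and 1.56% for independent genes.

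The repertoire was broad. Of 64 possible combinations of the 6 genes, 41 occurred among the 192 mutant and 50 among the 888 wildtype cells, numbers that depend on how many cells were seen. In the mutant the most frequent set was Klra4 with Klra7 and Klra8, in 16 cells (8.33%). In the wildtype it was Klra4, Klra7, Klra8 and Klra9 together, in 74 cells (8.33%). Klra9 as the only member detected occurred in 49 wildtype cells (5.52%). Both an activating and an inhibitory member were found in 68.2% of mutant and 76.5% of wildtype cells, inhibitory members only in 22.4% and 17.5%, and activating members only in 3.12% and 3.72%.

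If the genes were detected independently of each other, the share of cells with both genes of a pair would be the product of their shares. Among the 10 pairs without Klra6, the observed share over that product ran between 0.966 and 1.17 in the mutant and between 0.920 and 1.14 in the wildtype library when 1 UMI counted as detection. The mutant range depended on depth and on the detection rule. In cells thinned to 1000 UMIs it ran from 0.707 for Klra3 with Klra7 (15 cells) to 1.39 for Klra3 with Klra8 (24 cells), against 0.878 to 1.17 in the wildtype library. When detection needed 2 UMIs it ran from 0.747 to 1.38 for the same pairs, against 0.845 to 1.20 in the wildtype. In each of these settings the interval of the observed share held the product for all 10 mutant pairs. In the wildtype library it did so for 9 pairs with 1 UMI, 9 when thinned and 8 with 2 UMIs. With thinning and 2 UMIs together it held the product for 9 pairs in each library. The mutant exception was Klra3 with Klra8, at 2.16 times its product on 11 cells. Every wildtype exception was Klra9 with Klra7 or with Klra4. The pair of activating genes, Klra4 and Klra8, was found in 29.7% (23.3 to 36.7) of mutant cells, against a product of 25.4%, and in 35.6% (32.4 to 38.8) of wildtype cells, against 33.5%. In cells thinned to 1000 UMIs the same pair stood at 1.15 times its product in the mutant and 1.05 times in the wildtype library. In the wildtype library the pairs of Klra9 with Klra7 and with Klra4 had the lowest values. Klra9 was detected in 62.0% of cells with a Klra7 UMI and 75.9% of those without, and in 62.2% of cells with a Klra4 UMI and 74.9% of those without. With Klra8 it went the other way, with Klra9 in 70.0% of cells with a Klra8 UMI and 64.02% of those without. In mutant cells the corresponding shares of Klra9 were 48.8% with and 49.3% without Klra7, and 52.4% with and 44.9% without Klra4. Thinned, the wildtype values were 0.897 for Klra7 with Klra9 and 0.892 for Klra4 with Klra9.

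**Figure D4:**
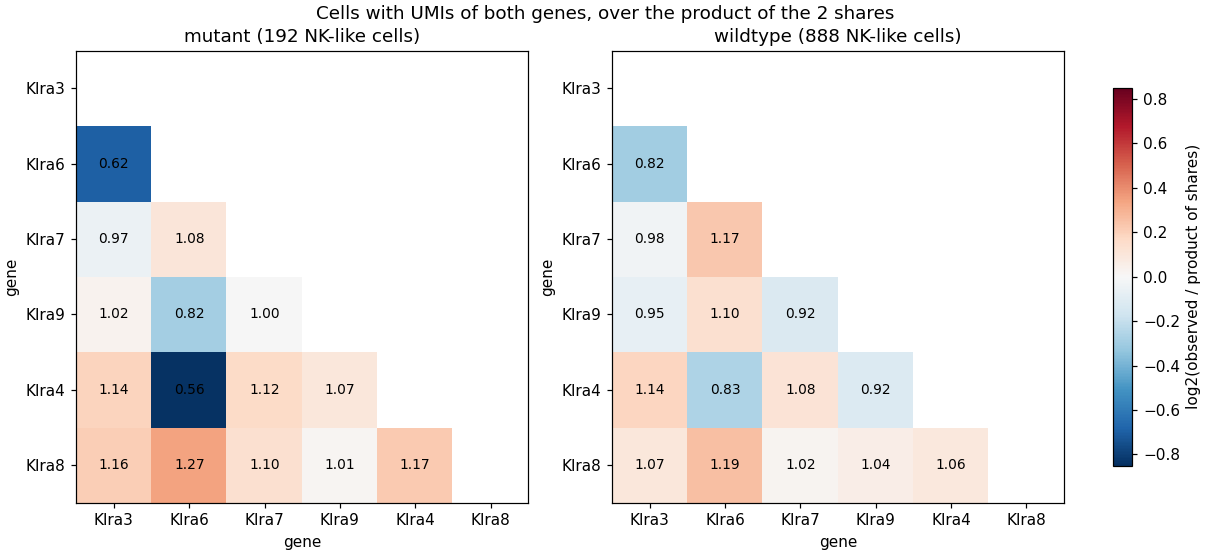
Share of NK-like cells with UMIs of both genes divided by the product of the genes' shares, for each of 15 pairs, in the mutant (left) and wildtype library (right); colour is the log2 of the printed value. Pairs without Klra6 lie between 0.966 and 1.17 in the mutant and between 0.920 and 1.14 in the wildtype library, and pairs with Klra6 rest on at most 7 mutant and 26 wildtype cells.

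NK-like cells with a Klra9 UMI were compared with those without over 22 listed maturation, granule and receptor genes. In the wildtype library, with 599 and 289 cells, 10 of the 22 had an interval above 1 and 6 below it. In the mutant library, with 94 and 98 cells, 3 lay above (Eomes, Gzma and S1pr5) and 1 below (Ccl5), and only Gzma was above in both. The genes named next were picked for their values. In wildtype cells the granzyme gene Gzmb stood at 1.73-fold (1.58 to 1.90), the chemokine receptor gene Cx3cr1 at 2.12-fold (1.09 to 4.54), the surface protein gene Ly6c2 at 1.73-fold (1.51 to 1.98) and the receptor gene Klrg1 at 1.58-fold (1.25 to 1.996). The transcription factor gene Tcf7 stood at 0.348 (0.189 to 0.628) and the receptor gene Cd27 at 0.629 (0.448 to 0.887), with Emb at 0.486 (0.312 to 0.757) and the cytokine gene Ltb at 0.489 (0.342 to 0.700). Median depth was 1662 UMIs with and 1635 UMIs without Klra9. In the mutant library Gzmb stood at 1.13-fold (0.951 to 1.35) and Ly6c2 at 1.42-fold (0.964 to 2.103), and Tcf7 at 0.817 (0.316 to 2.06) on 10 and 12 UMIs. Gzma stood at 1.10-fold (1.05 to 1.16) in mutant and 1.32-fold (1.29 to 1.36) in wildtype cells. The intervals of the libraries do not overlap for Gzmb, Gzma and Ccl5.

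Beside Klra4, 0 of the 22 genes had an interval above 1 in either library, and 4 mutant and 10 wildtype ones lay below it, among them Klrc1, which encodes the inhibitory receptor NKG2A. Klrc1 was lower in cells with a Klra4 UMI in the mutant library, at 0.356 (0.249 to 0.502), and in the wildtype library, at 0.416 (0.357 to 0.484). Beside Klra8 the same gene was at 0.677 (0.483 to 0.941) in mutant and 0.713 (0.615 to 0.826) in wildtype cells. Klrc1 was thus lower beside either activating member in each library. This was not particular to them: its interval also lay below 1 beside the inhibitory members Klra7 in the mutant and Klra9 in the wildtype library. The intervals of the Klra4 and Klra8 contrasts overlap in the mutant and not in the wildtype library. There were 10 mutant and 35 wildtype cells with a Klra6 UMI. They held more of the chemokine gene Xcl1, at 4.22-fold (2.37 to 7.16) and 1.91-fold (1.41 to 2.55). Klra4 was lower in them, at 0.174 (0.0562 to 0.408) and 0.459 (0.338 to 0.609). By share of cells, however, the interval for Klra4 with Klra6 held the product in each library. Beside Klra6, 5 of the 22 genes lay above 1 and 2 below it in the mutant library, against 3 and 5 in the wildtype. Ccl5 and Klrd1 lay above 1 in the mutant and below it in the wildtype library. Xcl1 also lay above 1 beside Klra7 in the wildtype library. These contrasts are between cells of the same pool, which are not replicates, and such cells may differ in several genes at once.

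**Figure D5:**
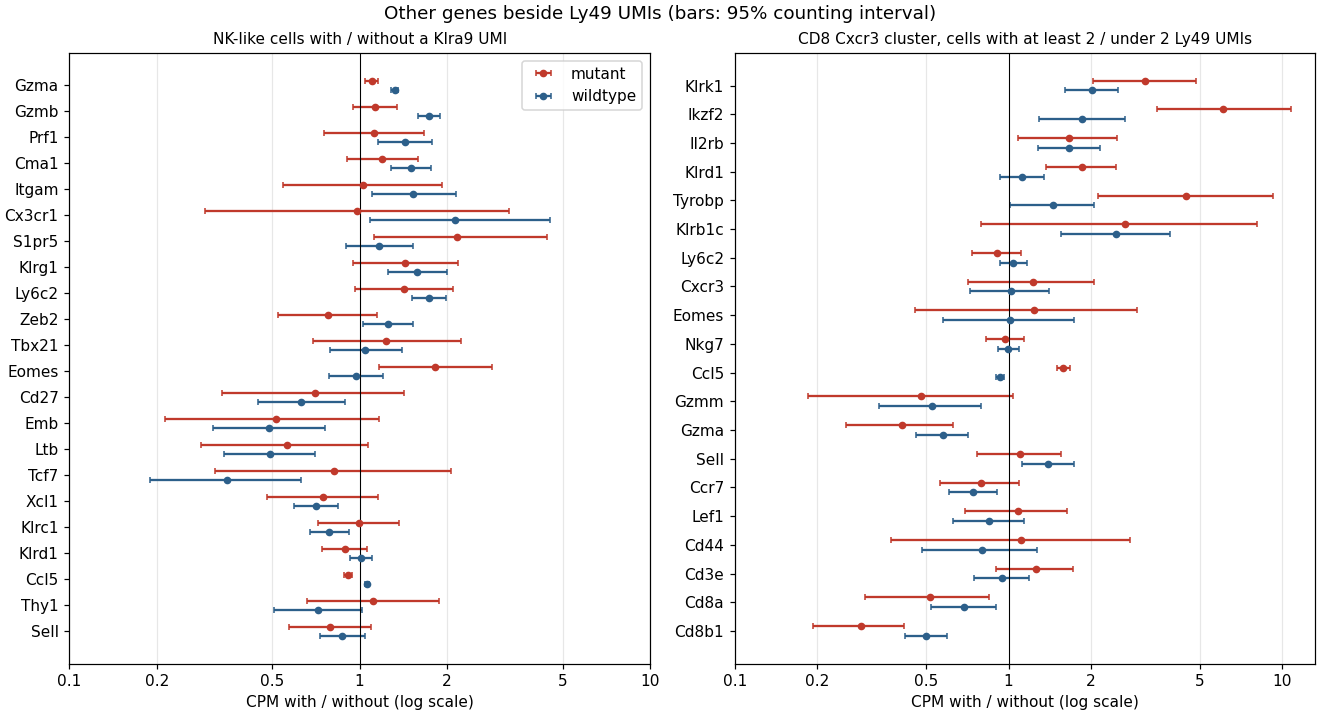
Fold of CPM (log scale, 95% counting intervals, mutant above wildtype) between NK-like cells with and without a Klra9 UMI (left) and between cells of the CD8 T-like Cxcr3 cluster with at least 2 and with fewer Ly49 UMIs (right). In wildtype cells the intervals of 10 genes lie above 1 beside Klra9 and of 6 below it, against 3 and 1 in mutant cells, and in the Cxcr3 cluster Klrk1, Ikzf2 and Il2rb lie above 1 and Cd8a, Cd8b1 and Gzma below it; Ncr1, with 0 UMIs in 1 set of mutant cells, is not drawn.

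Among CD8 T-like cells, Ly49 RNA was concentrated in the cluster with Cxcr3, a receptor of memory and effector T cells. There the 6 genes stood at 265 CPM (225 to 310) in mutant and 421 CPM (385 to 459) in wildtype cells, against 12.3 CPM and 51.8 CPM in the Dapl1 cluster. The fold between the clusters was 21.6 (13.8 to 35.4) in the mutant library and 8.12 (6.69 to 9.91) in the wildtype. The Dapl1 cluster was at the level of B-like cells, at 0.688 (0.393 to 1.17) and 1.06 (0.816 to 1.38) of it, and is read as background. NK-like cells had 16-fold (13.6 to 18.9) and 11.9-fold (10.8 to 13.01) the level of the Cxcr3 cluster.

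Klra7, Klra3 and Klra6, all inhibitory, were the members that stood furthest above B-like cells in this cluster. Klra7 led with 82 mutant UMIs (138 CPM, 109 to 171) and 290 wildtype UMIs (243 CPM, 216 to 273), found in 20% (14.7 to 26.2) and 29.2% (24.7 to 33.99) of cells. The shares of B-like cells with a Klra7 UMI were 1.27% and 2.42%, at a median depth of 1585 UMIs, against 2936 UMIs in mutant and 3086 UMIs in wildtype cells of the Cxcr3 cluster. Thinned to 1000 UMIs, Klra7 was seen in 8.08% and 14.9% of cells of the cluster, and in 0.733% and 0.908% of B-like cells. Klra3 stood at 53.7 CPM (36.7 to 75.8) and 43.6 CPM (32.5 to 57.1), or 22.6-fold (9.31 to 66.04) and 8.09-fold (4.26 to 16.7) the level of B-like cells. Klra6 stood at 45.3 CPM (29.9 to 65.9) and 46.9 CPM (35.4 to 60.9), in 8.50% and 10.7% of cells, with UMIs in 0 of 1259 mutant and 0 of 1118 wildtype B-like cells, which allows shares of up to 0.238% and 0.268%. Klra6 was the only member whose level in NK-like cells was below that in this cluster, at 0.583 (0.261 to 1.21) of it in the mutant library and 0.670 (0.449 to 0.997) in the wildtype.

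Klra9 and the activating members were nearer to the level of B-like cells. Klra9 had 13.4 CPM (8 UMIs) in mutant and 42.7 CPM (51 UMIs) in wildtype cells, or 4.84-fold (1.53 to 15.7) and 2.98-fold (1.88 to 4.79) that level. Klra4 had 3 mutant and 26 wildtype UMIs (5.03 and 21.8 CPM), which was 1.81-fold (0.303 to 7.95) and 3.24-fold (1.65 to 6.58) the level of B-like cells. Klra8 had 6 and 27 UMIs (10.1 and 22.6 CPM), or 3.17-fold (0.908 to 10.4) and 2.19-fold (1.21 to 4.00). The folds of Klra9, Klra4 and Klra8 had intervals above 1 in the wildtype library that overlap each other, and in the mutant only that of Klra9 lay above 1. Klra7, by contrast, stood at 20.4-fold (12.01 to 36.7) and 20.1-fold (13.5 to 31.0) the level of B-like cells. The balance of these members was thus not that of NK-like cells: in mutant cells Klra7 and Klra4 had 82 and 3 UMIs in the Cxcr3 cluster, 475 and 491 UMIs in NK-like cells, and 39 and 21 UMIs in free RNA.

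Between the libraries, Klra7 in this cluster had a ratio of 0.566 (0.438 to 0.726), Klra9 of 0.314 (0.129 to 0.667), Klra3 of 1.23 (0.768 to 1.95) and Klra6 of 0.966 (0.586 to 1.55). Of these 4 measured members, 2 were at least 1.5-fold lower in the mutant and 0 were higher, where 4.03% of 3748 measured genes were lower and 3.5% higher. Over all CD8 T-like cells 4 of 6 members were lower and 0 higher, against 3.16% and 2.63% of 6971 genes. That count pools the Dapl1 cluster, read as background, with the Cxcr3 cluster. The Cxcr3 cluster held 200 of 947 mutant and 384 of 1388 wildtype CD8 T-like cells. In B-like cells, which should lack these receptors, the sum of the 6 genes had a ratio of 0.365 (0.252 to 0.521). The part of background and of cluster shares in these counts was not tested. The sum of the 6 genes had a ratio of 0.445 (0.375 to 0.526) over all CD8 T-like cells and of 0.630 (0.524 to 0.755) in the Cxcr3 cluster. Free RNA of these genes was lower in the mutant as well, at 0.332, and its part in the T cell ratios was not tested. With the free RNA profile subtracted, the ratio over all CD8 T-like cells was 0.528. Klra7 thus had a ratio above 1 in NK-like cells and below 1 in these T cells, a difference between cell types that was not tested. By UMIs it was above 1 again in a smaller cluster led by Cxcr6, given below with the small groups.

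T cells of the Cxcr3 cluster showed fewer members per cell than NK-like cells. In the Cxcr3 cluster 65 of 200 mutant cells (32.5%, 26.1 to 39.5) and 176 of 384 wildtype cells (45.8%, 40.8 to 51.0) held a Ly49 UMI. The mean number of members was 0.430 in mutant and 0.685 in wildtype cells, against 2.53 and 2.76 in NK-like cells. Exactly 2 members were found in 14 mutant cells (7%) and 52 wildtype cells (13.5%), and 3 in 2 (1%) and 12 (3.1%). There was 1 cell with 4 members in each library, and 2 wildtype cells had 5. Cells with at least 2 Ly49 UMIs numbered 38 (19.0%) and 101 (26.3%), and among B-like cells 1 of 1259 mutant and 6 of 1118 wildtype cells reached that number.

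These 38 mutant and 101 wildtype cells differed from the rest of their cluster in named T cell genes. Cd8b1, the CD8 beta chain gene, was at 0.288 (0.194 to 0.414) in the mutant library and 0.4998 (0.417 to 0.596) in the wildtype, and Cd8a at 0.518 (0.299 to 0.846) and 0.689 (0.522 to 0.900). Ikzf2, which encodes the transcription factor Helios, was at 6.09-fold (3.49 to 10.8) and 1.86-fold (1.29 to 2.65), and Klrk1, the gene of the receptor NKG2D, at 3.14-fold (2.03 to 4.82) and 2.01-fold (1.61 to 2.51). Il2rb, the shared beta chain gene of the interleukin-2 and interleukin-15 receptors, was at 1.66-fold in each library (1.08 to 2.48 and 1.28 to 2.16). Cd3e stayed at 1.26-fold (0.901 to 1.72) and 0.946-fold (0.747 to 1.19). Of the 21 genes fixed for this contrast, 6 had an interval above 1 and 3 below it in the mutant library, and 6 above and 6 below in the wildtype. Of the NK genes named next, only Tyrobp had an interval above 1 in both libraries. Tyrobp was at 4.43-fold (2.13 to 9.24) on 17 UMIs in each set of mutant cells and 1.45-fold (1.01 to 2.05) in wildtype cells, and Klrb1c, the NK1.1 gene, at 2.66-fold (0.794 to 8.08) and 2.47-fold (1.56 to 3.90). Klrd1, the gene of CD94, was at 1.85-fold (1.37 to 2.47) and 1.12-fold (0.934 to 1.35). Ncr1 had 2 and 0 UMIs in mutant cells, and was at 2.16-fold (0.835 to 5.45) on 10 and 12 UMIs in wildtype cells. The granule genes Gzma and Nkg7 were not higher: Gzma was at 0.409 (0.255 to 0.628) and 0.574 (0.460 to 0.711), and Nkg7 at 0.969 (0.825 to 1.13) and 0.998 (0.913 to 1.09). The part of NK cell RNA in these folds was not tested.

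Among the smaller groups, the unnamed cluster led by Cxcr6 (36 mutant and 50 wildtype cells) held 39 mutant Ly49 UMIs in 27.8% of cells and 22 wildtype UMIs in 20%, a ratio of 2.76 (1.60 to 4.89). The ratio of those shares was 1.39 (0.519 to 3.72). Klra7 had 21 UMIs in 7 mutant cells and 2 UMIs in 2 wildtype cells, a ratio of 16.4 (4.00 to 144). By share of cells its ratio was 4.86 (0.926 to 48.0), an interval that includes 1. The direction by UMIs is opposite to the one in CD8 T-like cells. Cd3e stood at 414 CPM in mutant and 524 CPM in wildtype cells of this cluster, but its make-up differed between the libraries. Cd8a stood at 170 CPM in mutant and 23.4 CPM in wildtype cells, and Cd4 at 36.5 and 102 CPM. The NK gene Ncr1 stood at 158 and 62.5 CPM, and Klrb1c at 438 and 422 CPM. Cells of the cycling cluster, 19 and 20, held 75 and 185 UMIs. CD4 T-like cells stood at 10.6 CPM in mutant and 50.3 CPM in wildtype cells, which was 0.593 (0.356 to 0.971) and 1.03 (0.798 to 1.33) of the level of B-like cells. Monocyte-like cells held 4 and 24 UMIs of the 6 genes.

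The genes that carry Ly49 signals were, for the most part, at similar levels in NK-like cells of both libraries. Of 17 genes listed, 15 were measured, 1 was lower by at least 1.5-fold in the mutant and 0 were higher, against 7.9% and 3.81% of all genes. The lower gene was Ptpn6, which encodes SHP-1, the phosphatase that inhibitory Ly49 receptors recruit: 115 CPM in mutant and 175 CPM in wildtype cells, a ratio of 0.658 (0.474 to 0.896). The adaptor gene Tyrobp, needed by Ly49D and Ly49H, stood at 3575 and 3917 CPM (0.913, 0.862 to 0.966), and Hcst, the gene of the adaptor DAP10, at 794 and 818 CPM (0.971, 0.858 to 1.10). The kinase genes Syk (1.10, 0.683 to 1.72) and Zap70 (1.0004, 0.707 to 1.39) had intervals that include 1. Fcer1g, also listed, was at 0.805 (0.759 to 0.853). The median log2 ratio of the list was -0.04, against -0.05 over all measured genes. In the Cxcr3 cluster 10 genes of this list were measured. There 2 were at least 1.5-fold lower in the mutant and 0 higher, against 4.03% and 3.5% of all genes. The lower ones were Tyrobp at 0.470 (0.313 to 0.686) and Fcer1g at 0.625 (0.479 to 0.808).

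For the class I ligand genes, which NK cells express themselves, H2-K1 stood at 1941 CPM in mutant and 2224 CPM in wildtype NK-like cells (ratio 0.873) and H2-D1 at 4769 and 5695 CPM (0.837). B2m, the gene of their shared light chain, had a ratio of 0.987 (0.938 to 1.04). None of the 3 reached 1.5-fold. Of 20 other NK receptor genes, 15 were measured and 0 reached 1.5-fold in either direction, with a median log2 ratio of -0.26. Ncr1 (0.757, 0.675 to 0.847) and Klrb1c (0.720, 0.640 to 0.809) lay in the range of Klra8, while Klrk1 (0.939) and Klre1 (0.910) lay near Klra4. In the Cxcr3 cluster 4 of 8 measured genes of this list were at least 1.5-fold lower in the mutant, against 4.03% of all genes there, namely Klrb1c, Klrc1, Klrc2 and Klrk1, beside Klra7 and Klra9.

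Of 12 transcription factor genes known from Ly49 or NK cell control, 11 were measured in NK-like cells, and in the mutant 2 were higher by 1.5-fold or more, with 0 lower, against 3.81% and 7.9% of all genes. Tcf7, which encodes TCF-1, known to control the Ly49A gene Klra1, stood at 52.8 CPM in mutant and 31.4 CPM in wildtype cells, a ratio of 1.68 (0.970 to 2.82) on 22 and 51 UMIs, an interval that includes 1. Lef1, of the same factor family, stood at 106 and 63.5 CPM (1.66, 1.14 to 2.39). Runx3 had a ratio of 1.40 (1.09 to 1.77), while Eomes (0.938) and Tbx21 (0.869), the genes of the T-box factors of NK cells, had intervals that include 1. Tcf7 was also the lowest of the genes named beside Klra9 in wildtype cells, which were picked for their values. Beside Klra9 in mutant cells its interval included 1. Whether the levels of Tcf7 and Klra9 are linked was not tested.

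Of the 5 other Klra genes, Klra1 (Ly49A) was the only one measured in NK-like cells, at 187 CPM (148 to 234) in mutant and 251 CPM (227 to 276) in wildtype cells, a ratio of 0.746 (0.578 to 0.953). It was also seen in the Cxcr3 cluster, at 47.0 and 72.9 CPM. Klra5 had 1 mutant and 41 wildtype UMIs in NK-like cells, a ratio of 0.0949 (0.00235 to 0.560). Klra2 lay outside this pattern: it had 2 and 0 UMIs in NK-like cells and 197 CPM in mutant and 167 CPM in wildtype monocyte-like cells, in 39.8% and 32.0% of them.

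Over 12 points, 6 cell groups (NK-like, B-like, monocyte-like and CD4 T-like cells and both CD8 T-like clusters) in each library, the genes whose log2(CPM + 10) followed the sum of the 6 members most closely were Klre1 (Pearson r = 0.991), Gzma (0.983), Tmem37 (0.981), Gzmb (0.981) and Il18rap (0.979), of 6980 genes ranked. The points share 2 libraries and their free RNA, and these values are a description.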

How the data were processed

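The deposited values were raw UMI counts per gene and barcode for 1 library of each genotype. The authors used Cell Ranger 2.1.1 and the mouse build mm10, per the submitters' processing notes, and each matrix listed 27998 genes and 737280 barcodes. How shared reads were assigned is not given in the sources used here. The 6 members and all gene lists were chosen with earlier results of these data known.

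Barcodes with at least 800 UMIs, at least 200 genes and at most 10% mitochondrial UMIs were kept. Scrublet (in scanpy 1.11.5) marked doublets at a score above 0.2, which removed 69 mutant (1.65%) and 133 wildtype cells (2.55%). Kept cells held 63.1% of the mutant and 74.1% of the wildtype UMIs. Cells were scaled to 10000 UMIs, reduced to 2000 variable genes without Klra genes and 30 components, and clustered jointly by Leiden (leidenalg 0.10.2, 15 neighbours, resolution 1.0). Of 21 clusters, 3 stayed unnamed. A cluster was named when at least 3 and at least 60% of a marker set were 1.5-fold up and seen in at least 10% of its cells, 10 points ahead of any other set. This naming rule was set after the clusters were seen.

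UMIs were summed per class and library. Shares carry Clopper-Pearson intervals, levels exact Poisson intervals and ratios exact conditional intervals, all at 95% and for counting error only, computed with scipy 1.17.1. Genes with at least 50 UMIs in both libraries together counted as measured, and the fold used was 1.5. Where a level or share was 0, 3 counts of the total set the limit. The named genes were the members, every other gene with a Klra symbol, fixed lists of signalling, ligand, receptor and regulator genes, and the 5 genes most alike. Beside these, 22 genes were listed for cells with and without each member in NK-like cells and 21 for T cells; those named from these lists, other than in counts, were chosen after their values were seen. With 1 library per genotype the design gives no p-value. Ratio intervals were tested on simulated data. Alternatives covered cell filters, doublets, clustering, thinning, free RNA, scaling and detection.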

Additional observations from a re-analysis of the deposited data

Results flagged for a closer look

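Klra7 (Ly49G) differed in direction between NK-like and CD8 T-like cells of the same libraries. Its ratio of mutant to wildtype was 1.18 (1.07 to 1.31) in NK-like cells, 0.441 (0.345 to 0.558) in all CD8 T-like cells and 0.566 (0.438 to 0.726) in their Cxcr3 cluster. The NK-like interval lies above 1 and both T cell intervals lie below it, and the difference itself was not tested, since each genotype had 1 library. The free RNA ratio of Klra7 was 0.598 (0.395 to 0.890), and its part in the T cell ratios was not tested. Not all cells with T cell RNA had a ratio below 1. In the unnamed cluster led by Cxcr6 it was 16.4 (4.00 to 144). This rests on 21 UMIs in 7 of 36 mutant cells and 2 UMIs in 2 of 50 wildtype cells. By share of cells the ratio there was 4.86 (0.926 to 48.0), an interval that includes 1. That cluster also held NK RNA, with Ncr1 at 158 CPM in mutant and 62.5 CPM in wildtype cells. Its Cd8a level differed as well, at 170 and 23.4 CPM.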

How the results depend on the processing

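Ratios of each of the 6 genes in NK-like cells stayed inside their main intervals under the 12 alternatives run: Klra9 between 0.459 and 0.493, Klra8 between 0.702 and 0.784, Klra7 between 1.18 and 1.23 and Klra3 between 1.14 and 1.27. The summed ratio in NK-like cells ran from 0.832 to 0.884. Over CD8 T-like cells it was 0.445, and 0.347 after thinning, 0.362 with cell-by-cell classes, 0.528 after free RNA subtraction and 0.630 in the Cxcr3 cluster alone, an alternative chosen after seeing the data. The share of NK-like cells with any Ly49 UMI was 88.9% and 95.1% after thinning and 87.0% and 93.4% when detection needed 2 UMIs, in mutant and wildtype. The mean number of members was then 1.97 and 2.29, or 1.88 and 2.06. Genes at least 1.5-fold lower in NK-like cells numbered 367, but 887 with a minimum of 20 UMIs and 40 with 200 UMIs, and those higher 177, 514 and 11. Fewer genes pass a higher minimum, and the shares of measured genes at minimums of 20 and 200 UMIs were not computed. Scaling by the median ratio and free RNA subtraction do not apply to shares, nor does the detection rule to summed UMIs. Depth limits the mutant values: the NK-like sum was 416819 UMIs in 192 cells, with 11 UMIs of Klra6, and Klra4, Klra8 and Klra9 had 3, 6 and 8 mutant UMIs in the Cxcr3 cluster. No paired analysis was possible because each genotype had 1 library and the labels carry no replicate numbers.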
